A study of Mus musculus with 33 samples.

Results

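New Sox2-only sites are summits of Sox2 ChIP-seq in Uhrf1 knockout (KO) mouse embryonic stem cells (mESC) that stood apart from the Sox2 and Oct4 summits of wild type (WT) cells and from the Nanog summits of the same KO cells. They were chosen by measured positions: a KO Sox2 summit was a member when no WT Sox2, no WT Oct4 and no KO Nanog summit lay within 100 bp. Of 20755 KO Sox2 summits, 11869 were members (57.2%). The count depends on the length of the KO list, since the WT Sox2 list holds 5190 summits, and among the 5190 tallest KO Sox2 summits only 770 were members. The other KO Sox2 summits were used for comparison, and comprised 3352 kept sites with a WT Sox2 summit within 100 bp (16.2%), 3363 sites without one but with a WT Oct4 summit (16.2%) and 2171 sites with only a KO Nanog summit (10.5%), called joint sites here. A total of 11821 members lay on assembled chromosomes, and the 48 on unplaced sequence were left out of measures that need genes or bases.

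Sox2 is a DNA-binding factor of the HMG-box family that maintains pluripotency, often bound next to Oct4, and Nanog is a homeodomain factor of the same network. Uhrf1 binds hemimethylated DNA and histone H3 and recruits the maintenance methyltransferase Dnmt1, so stem cells without it have little DNA methylation. H3K4me3 marks active and CpG-rich promoters, H3K27me3 is the mark of Polycomb repression, and promoters with both are called bivalent. H3K9me3 marks heterochromatin and silenced repeats.

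The study set WT E14 mESC against Uhrf1 KO E14 mESC, both undifferentiated and grown with leukemia inhibitory factor, and embryoid bodies (EBs, differentiating aggregates) of each genotype at weeks 1, 2 and 3. It profiled H3K4me3 and H3K27me3 at all stages, H3K9me3, Sox2, Oct4 and Nanog in mESC, and Uhrf1 in WT mESC alone. Of 33 samples, 25 had a list of enriched regions, with 1 library per group and 1 KO cell source named, obtained from another laboratory together with the WT cells. No difference could therefore be set against a spread between replicates. Differences between shares are given in percentage points, and all intervals are 95% intervals that cover counting error over sites of single libraries only. The lists hold no expression values, so the genotype and cell type were not checked against marker genes. In such bulk cells, binding in a part of the cells and weaker binding in every cell cannot be told apart.

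Of the 10 tallest members, 6 of the 7 tallest are shown first, with 101 bases of the mm9 (NCBIM37) plus strand centred on the summit, because they have the most reads. Capitals mark a Sox motif, CATTGT or CTTTGT on either strand, so that ACAATG and ACAAAG are the same motifs read from the other strand. Their heights were 571, 258, 132, 105, 89 and 75 reads in the order printed, and only the fourth held a Sox motif.
chr17:39982169-39982269: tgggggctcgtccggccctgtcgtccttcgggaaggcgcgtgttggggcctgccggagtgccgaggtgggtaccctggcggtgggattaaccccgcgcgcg
chr6:3150891-3150991: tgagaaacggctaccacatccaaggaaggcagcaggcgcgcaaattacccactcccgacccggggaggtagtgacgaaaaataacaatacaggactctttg
chr8:19893046-19893146: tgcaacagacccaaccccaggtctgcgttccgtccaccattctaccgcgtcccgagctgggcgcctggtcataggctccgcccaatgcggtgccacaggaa
chrX:73844370-73844470: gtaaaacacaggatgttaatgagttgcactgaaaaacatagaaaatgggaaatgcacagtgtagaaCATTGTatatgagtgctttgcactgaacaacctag
chr13:52016252-52016352: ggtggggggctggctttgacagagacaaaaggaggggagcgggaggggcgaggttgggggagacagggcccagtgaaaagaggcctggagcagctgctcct
chr11:3193065-3193165: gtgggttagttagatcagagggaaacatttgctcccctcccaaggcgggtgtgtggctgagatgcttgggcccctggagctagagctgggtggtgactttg

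The windows on chromosomes 17, 6, 8 and 13 lay outside protein-coding genes, with the nearest coding starts those of Pgk2 at 363335 bp, Samd9l at 198630 bp, Gm15319 at 65692 bp and Gadd45g at 74255 bp. The chromosome 8 summit lay inside 4 annotated noncoding genes, among them 6820431F20Rik. The X summit was intronic in 4930468A15Rik and the chromosome 11 summit intronic in Patz1, a zinc finger factor gene, 4238 bp from its start. The window on chromosome 17 was the richest in G and C of the 6, at 73.3% with 13 CpG, and that on X the poorest, at 36.6% with 0 CpG.

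A further set, chosen after values were seen for height and position, shows bases at and away from gene starts, and is not a sample of the members. Tall members within 2 kb of a gene start are represented by sites of Sall4 and Tmed4, which held a Sox motif, and of Rps29 and Stat3, which did not. At the Rps29 site an annotated noncoding RNA gene, AC099934.1, was also present. Tall members over 2 kb from a coding start, with no excluding summit within 1 kb, are represented by sites 39555 bp upstream of Tcf7l2 and 36443 bp downstream of the start of Gm6772. In the latter the Sox motif is followed after 1 base by ATGC, the joint Oct4-Sox2 arrangement.
Sall4, chr2:168594932-168595032: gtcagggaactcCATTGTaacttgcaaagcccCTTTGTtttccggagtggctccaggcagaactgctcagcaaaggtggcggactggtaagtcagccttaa
Tmed4, chr11:6174933-6175033: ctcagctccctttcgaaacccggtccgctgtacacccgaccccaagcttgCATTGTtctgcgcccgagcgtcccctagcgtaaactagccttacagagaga
Rps29, chr12:70260349-70260449: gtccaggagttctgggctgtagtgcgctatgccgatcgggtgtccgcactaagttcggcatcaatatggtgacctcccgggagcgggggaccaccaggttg
Stat3, chr11:100801026-100801126: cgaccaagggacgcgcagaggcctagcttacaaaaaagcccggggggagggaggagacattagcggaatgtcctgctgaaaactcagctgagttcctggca
Tcf7l2, chr19:55776695-55776795: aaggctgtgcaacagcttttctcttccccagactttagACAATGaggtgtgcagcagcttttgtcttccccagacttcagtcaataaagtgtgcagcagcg
Gm6772, chr12:88112007-88112107: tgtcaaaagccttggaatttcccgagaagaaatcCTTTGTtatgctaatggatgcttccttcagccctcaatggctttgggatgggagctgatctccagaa

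New Sox2-only sites were low. Height, the number of reads at the summit, had a median of 15 among members, with quartiles of 13 and 19 and a range of 8 to 571. The median was 39 at kept sites, 23 at sites with a WT Oct4 summit and 22 at joint sites. Only 471 members (3.97%) reached 30 reads, against 66.8% of kept sites. These heights come from the list that chose the members and are a description, and heights of WT and KO libraries were not compared, since read totals were not used here.

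**Figure D1:**
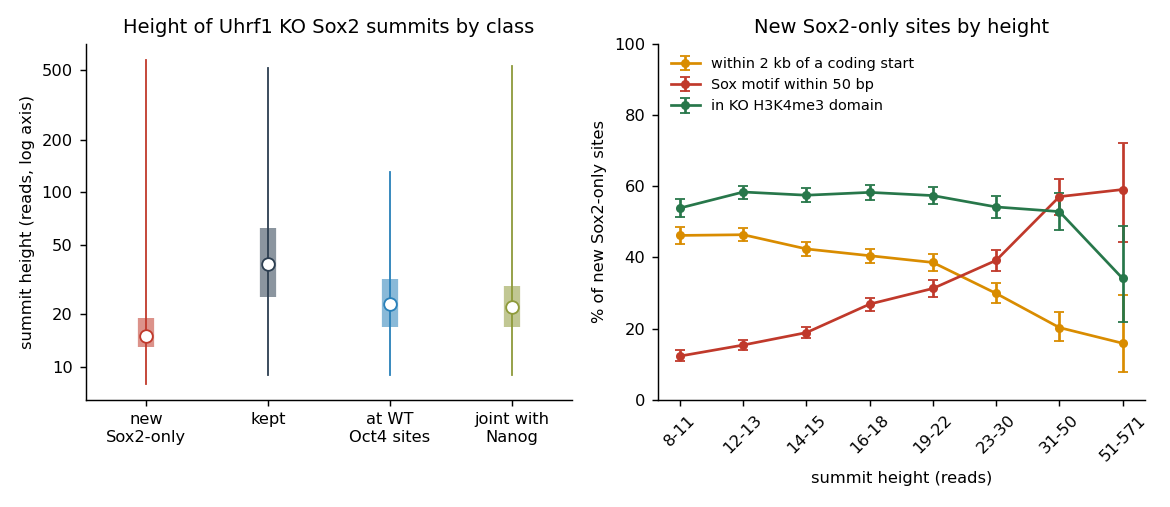
Left, height of Uhrf1 KO Sox2 summits in reads at the summit on a log axis, with the range (line), quartiles (bar) and median (circle) of each class. Right, share of new Sox2-only sites near a coding start, with a Sox motif or in a KO H3K4me3 domain in 8 groups of height, with Wilson 95% intervals. The share with a motif was 12.3% at heights of 8 to 11 and 59.1% at 51 and over, while the share near a coding start was 46.2% and 15.9%.

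Gene position and motif share of members shifted gradually with height. The share in KO H3K4me3 domains was alike at 8 to 11 reads (53.9%) and 31 to 50 reads (52.9%), and was 34.1% (21.9 to 48.9) at 51 and over. Among 1492 members of 8 to 11 reads, 46.2% lay within 2 kb of a coding start and 12.3% held a Sox motif, and the median G and C content of the 101 bases was 61.4%. Among 359 members of 31 to 50 reads, 20.3% lay near a coding start (interval 16.5 to 24.8), 57.1% held a Sox motif (51.9 to 62.1) and the median G and C content was 52.5%. The 44 members of 51 or more reads had a motif in 59.1% (44.4 to 72.3). The share with an excluding summit just beyond the limit, at 101 to 250 bp, was 5.56% in the lowest group and 36.4% in the tallest (23.8 to 51.1).

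Most members lay far from every excluding summit: 7583 (63.9%) had none within 10 kb, whereas 886 (7.46%) had one at 101 to 250 bp. Heights around the limit of 100 bp were not compared as a set, and sites named here are examples from either side of the limit. Just inside it were a member at position 80569280 of chromosome 10, with 24 reads and a WT Sox2 summit at 101 bp, and one at 79545102 of chromosome 11, with 25 reads and a KO Nanog summit at 101 bp. Just outside were a summit at 60466267 of chromosome 1, with 24 reads and a WT Oct4 summit at 100 bp, and one at 59426621 of chromosome 10, with 32 reads and a KO Nanog summit at 100 bp.

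The tallest members stood close to the limit. Of the 10 tallest, 8 had an excluding summit within 250 bp, and the X and chromosome 18 sites were the exceptions. The tallest of all, on chromosome 17, had a WT Sox2 summit 151 bp away, and the next, on chromosome 6, had one 108 bp away. Around the chromosome 17 site, WT Nanog, WT Oct4, KO Nanog and KO Oct4 summits lay at 136, 683, 739 and 1486 bp. The X site had its nearest excluding summit, of WT Oct4, at 134699 bp. The chromosome 13 site had a WT Nanog summit at 102 bp, WT Sox2, WT Oct4 and KO Nanog summits at 139 to 152 bp and KO Oct4 at 265 bp. One of the 10, at 148715634 on chromosome 3 with 74 reads, held 12 copies of TTAGGG, the telomere repeat, in its 101 bases. Summits of Sox2, Oct4 and Nanog of both genotypes lay 142 to 148 bp from it or were its own. Such sites are new and Sox2-only by the 100 bp limit alone. Repeats and mappability were not assessed. None of the 10 lay within 2 kb of a coding start, 5 lay in WT H3K9me3 domains and 6 in KO H3K9me3 domains. Only 1 lay in a Uhrf1 window, the site on chromosome 8.

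Summits of the lists that the rule did not use were few at members. WT Nanog summits lay at 1254 kept sites, a class chosen by WT Sox2 summits, from which members were chosen to lie away. These shares thus depend in part on the rule and are a description. A WT Nanog summit lay within 100 bp of 25 members (0.211%, 0.143 to 0.311), against 37.4% of kept sites, 8.89% of sites with a WT Oct4 summit and 5.25% of joint sites. A KO Oct4 summit lay within 100 bp of 15 members (0.126%, 0.0766 to 0.208), against 6.53%, 0.506% and 0.553% of these classes. The KO Oct4 list held 576 summits, far fewer than the 10632 of KO Nanog.

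Members gathered at gene starts. Of 11821 members, 4846 (41.0%, 40.1 to 41.9) lay within 2 kb of the start of a protein-coding gene, against 28.0% of all KO Sox2 summits, 13.4% of kept sites, 11.1% of sites with a WT Oct4 summit and 5.96% of joint sites. The difference to kept sites was 27.6 points (26.1 to 29.0). It was 13.4 points (8.89 to 17.9) when sites of like height were compared in 5 groups. Of the members near a start, 3738 (77.1%) lay within 500 bp of it, against 55.9% of such kept sites, and 56.3% lay downstream. The other members were intronic in 23.0%, exonic in 4.59% and intergenic in 31.4% of cases, where intergenic means outside coding genes.

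**Figure D2:**
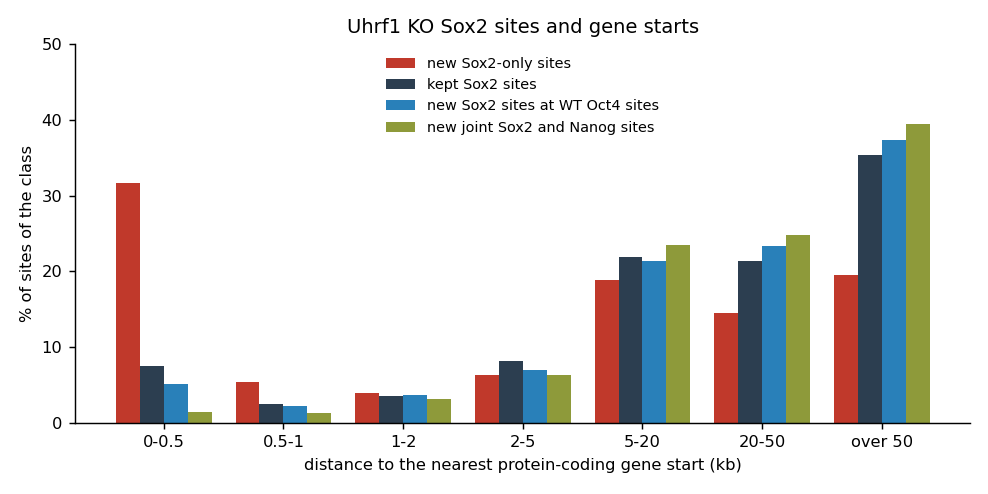
Share of sites of each class by distance in kb to the nearest start of a protein-coding gene, in bins of unequal width. New Sox2-only sites were the class with the largest share within 0.5 kb, 31.6% against 1.48% to 7.49%, and with the smallest share beyond 50 kb, 19.5% against 35.3% to 39.4%.

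Base composition followed gene position. The 101 bases around members had a median G and C content of 58.4%, against 49.5% at kept sites, 48.5% at sites with a WT Oct4 summit and 46.5% at joint sites. Near coding starts members had 67.3% and a median of 9 CpG, and farther than 2 kb they had 53.5% and 2 CpG. At least 5 CpG were present in 47.0% of members (46.1 to 47.9) and 15.8% of kept sites. Away from coding starts the shares were 22.7% and 8.71%. DNA methylation itself was not analysed here.

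The Sox motif was searched on both strands within 50 bp of the summit and was present in 2789 members (23.6%, 22.8 to 24.4). This was below the 29.3% of all KO Sox2 summits and above the 15.2% of 101-base windows across the genome. Windows centred 450 bp to either side of members held it in 11.0%. Kept sites held it in 37.8%, sites with a WT Oct4 summit in 29.9% and joint sites in 46.6%. The difference between members and kept sites was -14.2 points (-16.1 to -12.4), but within 5 groups of like height it was 0.249 points (-3.17 to 3.67). This mean is weighted by members and the groups went both ways, from -7.68 points at 13 to 15 reads to 10.4 points at 27 and more, the group that holds 2378 of the kept sites. Among sites above 18 reads, the median of the KO Sox2 list, it was -1.86 points (-4.33 to 0.607). Height thus moved with the motif difference, and kept sites of low height were few, with 49 in the lowest group.

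**Figure D3:**
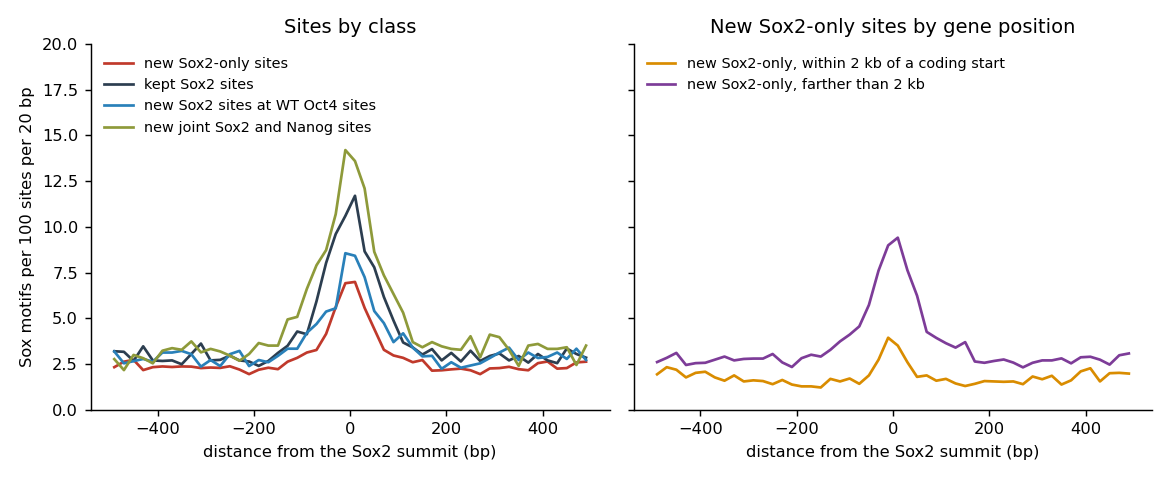
Number of Sox motifs per 100 sites in 20 bp bins against distance from the Sox2 summit in bp, by class (left) and, for new Sox2-only sites, by gene position (right). All curves are highest within 20 bp of the summit, at 6.99 for members, 11.7 for kept sites and 14.2 for joint sites, and members farther than 2 kb from a coding start reach 9.41 against 3.94 near one.

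The shares of members with a motif differed near and far from coding starts, as did the shares in their flanks. Farther than 2 kb from a coding start, 31.1% held the Sox motif, 2.48 times the share in their flanks. Within 2 kb, 12.8% did (11.9 to 13.8), 1.44 times their flanks and below the genome's 15.2%. The motif was still centred on the summit there, with 3.20 per 100 sites and bin within 40 bp of it and 2.01 at 400 to 500 bp. The GC box GGGCGG, to which Sp1 and Klf factors bind, was present in 34.5% of members near starts and 11.7% of the others. Over all members it was present in 21.1%, against 14.9% of all KO Sox2 summits, 7.73% of kept sites and 1.01% of genome windows. Flanks of members held it in 8.67%. The ratio to flanks was alike, 2.43 for members, 2.39 for all KO Sox2 summits and 2.17 for kept sites. For members it was 2.31 near starts and 2.72 elsewhere. Kept sites had the GC box in 23.5% near starts and 5.29% elsewhere. The ETS motif CCGGAAG was present in 3.97% of members, 3.07% of all KO Sox2 summits and 1.71% of kept sites, and in 0.280% of genome windows. Its ratio to flanks was 3.47, 3.11 and 2.85 in these classes. Near starts the ETS motif was present in 6.31% of members (5.66 to 7.03) and 4.92% of kept sites (3.27 to 7.34), whose intervals overlap.

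Members were chosen to lie away from WT Oct4 summits, so their share of Oct4 letters beside that of the other classes is a description. The octamer ATGCAAAT, the Oct4 site, was present in 117 members (0.990%, 0.827 to 1.18), against 0.389% in their flanks and 0.851% of genome windows. Farther than 2 kb from a coding start it was present in 1.48%, against 0.480% in the flanks. The octamer was present in 5.78% of kept sites, 9.28% of sites with a WT Oct4 summit and 3.31% of all KO Sox2 summits. Joint sites, which also lie away from WT Sox2 and Oct4 summits, had it in 2.96%. The joint arrangement, a Sox motif followed after 1 base by ATGC, was present in 42 members (0.355%, 0.263 to 0.480). This was against 0.0254% in their flanks, 2.55% of kept sites and 0.0386% of genome windows. It was present in 0.786% of joint sites and 1.06% of all KO Sox2 summits. The Esrrb motif TCAAGGTCA was present in 0.931% of members and 1.11% of kept sites. A motif match is a description of the letters and does not show which factor bound.

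H3K4me3 was frequent at members in both genotypes. In KO mESC, 6720 members lay inside an H3K4me3 domain (56.6%, 55.7 to 57.5), against 48.2% of all KO Sox2 summits, 43.3% of kept sites and 7.10% of the genome. In WT mESC, 62.6% lay inside one (61.7 to 63.4), against 55.0% of all KO Sox2 summits and 55.4% of kept sites, while among sites farther than 2 kb from a coding start the difference to kept sites was -8.52 points (-10.7 to -6.36). Of the 7428 members with WT H3K4me3, 85.3% had it in KO (84.5 to 86.1), against 81.4% over all KO Sox2 summits. Of the members without it, 8.67% had it only in KO, against 7.63% over all. WT H3K4me3 was present at 93.6% of members near coding starts and 41.4% of the others. The difference to kept sites in KO H3K4me3 was 13.3 points (11.4 to 15.2). It was 8.80 points (4.11 to 13.5) within groups of like height and -0.821 points (-2.92 to 1.26) among sites farther than 2 kb from a coding start. Near starts, 86.6% of members and 85.5% of kept sites lay in KO H3K4me3 domains.

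**Figure D4:**
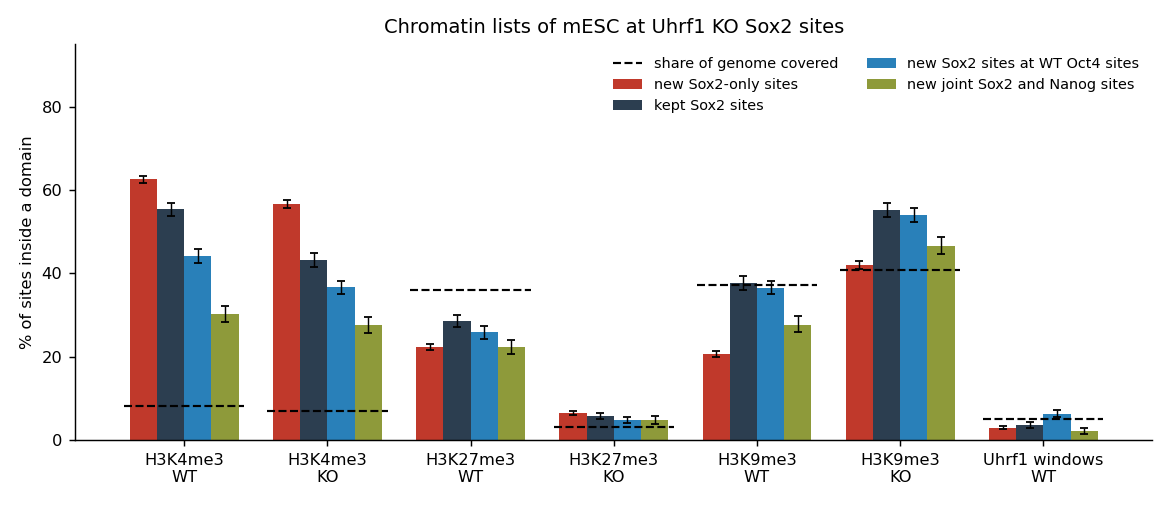
Share of KO Sox2 sites of each class inside domains of H3K4me3, H3K27me3 and H3K9me3 of WT and KO mESC and inside WT Uhrf1 windows, with Wilson 95% intervals. Dashed lines give the share of the assembled genome that each list covers, 37.2% for WT H3K9me3 and 36.1% for WT H3K27me3, both above the shares of new Sox2-only sites, 20.8% and 22.4%.

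Repressive marks of WT cells were less frequent at members than across the genome. In WT mESC, 2468 members lay inside an H3K9me3 domain (20.8%, 20.1 to 21.5), against 26.8% of all KO Sox2 summits, 37.7% of kept sites and 37.2% of the genome. The difference to kept sites was -16.9 points (-18.7 to -15.1), with -18.1 within groups of like height and -14.7 away from coding starts. In KO mESC the H3K9me3 list covered 42.0% of members (41.1 to 42.9) and 55.3% of kept sites. That KO list covered 40.9% of the genome with 3118 domains, against 11285 domains in WT. Of members outside WT H3K9me3, 32.1% were inside a KO domain, against 34.4% over all KO Sox2 summits and 39.6% of kept sites.

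WT H3K27me3 covered 2654 members (22.4%, 21.6 to 23.1), against 23.9% of all KO Sox2 summits, 28.6% of kept sites and 36.1% of the genome. The difference to kept sites was -6.22 points (-7.94 to -4.53), and -12.6 points (-14.7 to -10.5) among sites above 18 reads. Only 777 members (6.55%) lay in KO H3K27me3 domains, against 5.96% of all KO Sox2 summits and 5.76% of kept sites. That KO list covered 3.17% of the genome with 722 domains. Both H3K4me3 and H3K27me3 were present at 13.6% of members in WT and 3.14% in KO, near the 13.0% and 2.09% of kept sites. Neither was present at 28.7% in WT and 40.0% in KO, against 29.1% and 53.0% of kept sites.

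Uhrf1 windows were rarely the place of a member. Uhrf1 enrichment in WT mESC is given as windows of 10 kb, and 362 members lay in one (3.05%, 2.76 to 3.37), against 3.58% of all KO Sox2 summits and 5.14% of the genome. Kept sites had 3.64%, sites with a WT Oct4 summit 6.30% and joint sites 2.16%. The difference to kept sites was -0.590 points (-1.34 to 0.0775), with an interval that includes 0. Away from coding starts it was 0.583 points (-0.321 to 1.41), also with 0 inside. It was -2.69 points (-4.95 to -0.431) within groups of like height, -1.68 (-2.48 to -0.902) above 18 reads and -1.71 (-2.41 to -1.06) with exclusion within 500 bp. Members inside Uhrf1 windows differed from the rest of the members in their surroundings. Of the 362, 12.2% lay within 2 kb of a coding start, against 41.9% of the other members. Among all KO Sox2 summits, 76 of the 743 inside Uhrf1 windows lay near a start, against 28.0% of all. The low share there is thus not particular to members. WT H3K9me3 domains held 34.5% of the 362 against 20.4% of other members, and KO H3K4me3 domains 13.8% against 58.2%. For marks and motif, all KO Sox2 summits inside these windows were not compared. A Sox motif was present in 16.9% (13.3 to 21.1) against 23.8%. Chromosome X held 21 of them (5.80%), against 1.04% of the other members.

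Over all genes, 5227 of 22380 protein-coding genes (23.4%) had a member within 2 kb of the start and 12618 (56.4%) within 50 kb. Promoters were classed by H3K4me3 domains within 2 kb and H3K27me3 domains within 5 kb of the start. The study instead classed promoters by read enrichment over input, so its class shares are not comparable. In WT mESC 36.5% of active promoters (35.6 to 37.4) and 32.3% of bivalent promoters (30.9 to 33.7) had a member, against 3.03% of repressive promoters and 2.90% of promoters with no mark. Of active promoters with a member, 93.5% were active in KO (92.7 to 94.3), against 87.9% of those without (87.1 to 88.7). Of bivalent promoters with a member, 67.6% were active in KO (65.1 to 70.1) and 11.6% had no mark, against 57.1% and 22.6% of those without. The KO H3K27me3 list covered 3.17% of the genome, against 36.1% for WT, so bivalent promoters of either kind could turn active by list length. The part of list length was not tested. Other differences between promoters with and without a member were not tested.

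Gas8, a gene of motile cilia, was the nearest coding gene to the most members, 9 within 50 kb, with heights of 10 to 23. Rhou, on the same chromosome, had 8 with heights of 11 to 22. Both promoters were bivalent in WT and active in KO. Gm15319, also on chromosome 8, had 8 with heights of 15 to 27 and no mark in either genotype. Socs3, an inhibitor of cytokine signalling through Stat3, and Tgif1, a repressor of TGF-beta targets, had 7 each with heights of 17 to 24 and 11 to 29, and both were active in both genotypes. Tmem181b-ps had 7 as well. Cmklr1, the chemerin receptor, Elovl6, a fatty acid elongase, Gse1 and Hs3st3b1, a heparan sulfate sulfotransferase, had 6 each. The tallest member of these groups was that of Hs3st3b1, with 51 reads, and this promoter stayed bivalent in KO. Kept Sox2 sites lay within 50 kb of 7 of these 10 genes, and Rhou, Cmklr1 and Hs3st3b1 had 0. Over all 22380 coding genes, 3696 had a kept site within 50 kb.

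Members near pluripotency genes were low for the most part, as were members in all, with a median of 15 reads. Of all members, 3.97% reached 30 reads. Of 17 genes of the core and naive network, 5 (29.4%) had a member within 2 kb and 12 (70.6%) within 50 kb, against the 23.4% and 56.4% of all coding genes. Kept sites lay within 50 kb of 12 of them as well, but of only 3696 of the 22380 coding genes, against 12618 with a member. Sall4, a zinc finger partner of Oct4, had 4 members of 12, 13, 17 and 55 reads, the tallest 1539 bp upstream of its start. Pou5f1, which encodes Oct4, had 3 of 12, 16 and 17 reads, the closest 19138 bp upstream. Stat3, the transducer of leukemia inhibitory factor, had 3 of 12, 12 and 52 reads, the tallest 222 bp upstream. Near Sox2 itself, looked at after values were seen, 3 members lay within 120 kb of the start. They had 16 reads at 7331 bp upstream, 69 reads at 106644 bp downstream and 26 reads at 114800 bp downstream. The one of 69 reads, in the downstream region known for a stem cell enhancer of Sox2, lay 160 bp from a WT Sox2 summit.

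Each of the 14 genes listed for primed pluripotency had a member within 50 kb, and 7 had one within 2 kb. Over all coding genes 56.4% and 23.4% had one. Within 2 kb the share was 36.5% for promoters active in WT mESC and 32.3% for bivalent ones. The part of promoter class in these lists was not tested. Zic2 and Zic5, neighbouring zinc finger genes on chromosome 14, had the same 5 members of 11 to 18 reads, the closest 3561 bp downstream of the Zic2 start, and both were bivalent in WT and active in KO. Dnmt3a, a de novo DNA methyltransferase, had 4 of 11, 12, 15 and 18 reads, 2 of them within 2 kb of its annotated start. Of 17 neural progenitor genes, 8 (47.1%) had a member within 2 kb and 15 (88.2%) within 50 kb, against the same shares of all coding genes. Lists of this size differ from all genes by few genes. The homeobox gene Dlx2 had 4 of 12 to 19 reads, the closest 11 bp upstream of the start. Nes, the intermediate filament gene of neural progenitors, had 3 of 11, 13 and 22 reads.

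Members also lay near genes of other lineages. Within 50 kb, members lay near 11 of 16 mesendoderm and mesoderm genes, 10 of 14 endoderm genes and 7 of 11 trophoblast genes, and within 2 kb near 5, 6 and 1 of them. Over all coding genes 56.4% had a member within 50 kb and 23.4% within 2 kb. Hand1, a heart and trophoblast bHLH factor, had 3 of 14, 22 and 22 reads with none within 2 kb. Foxf1a had members of 12 and 15 reads, and Gsc, a marker of the early gastrula organizer, had members of 10 and 13 reads. Foxa1, an endoderm pioneer factor, had 5 of 11 to 20 reads, and Gata4 and Hnf4a had 4 each of 11 to 14 and 13 to 30 reads. Peg10, an imprinted placental gene, had members of 13 and 22 reads and Ascl2 1 of 26 reads. Promoter classes of Gata4 and Ascl2 were repressive in both genotypes. Lists of this size differ from all genes by few genes, so the counts are a description.

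Germline genes kept silent by DNA methylation and genes of the 2-cell stage were of interest because Uhrf1 maintains methylation. Of 17 germline genes, 5 (29.4%) had a member within 2 kb and 10 (58.8%) within 50 kb, near the shares of all coding genes. A kept site lay within 50 kb of 0 of the 17, and of 3696 of the 22380 coding genes. Piwil2, of the piRNA pathway, had members of 13 and 15 reads, the closer 311 bp upstream of the start. Stag3, a meiotic cohesin subunit, had members of 12 and 17 reads, the taller 261 bp upstream. The helicase gene Ddx4 had 1 of 11 reads, 142 bp downstream of its start. Of 9 genes of the 2-cell list in the annotation, 0 had a member within 2 kb and 3 within 50 kb, BB287469, Gm5662 and Gm8300. BB287469 and Gm8300 had the same member of 19 reads within 50 kb, and Gm5662 had 1 of 21 reads.

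Genes of the DNA methylation and histone methylation machinery had members within 2 kb of 13 of 25 starts (52.0%) and within 50 kb of 21 (84.0%). Over all coding genes these shares were 23.4% and 56.4%, and 36.5% of promoters active in WT mESC had a member. The part of promoter class was not tested. Trim28, a corepressor of zinc finger proteins, had 5 of 10 to 16 reads, none within 2 kb. Dnmt1, the maintenance methyltransferase that Uhrf1 recruits, had 4 of 16, 18, 22 and 39 reads, the closest 317 bp downstream of the start. Its promoter was active in both genotypes. Dnmt3a, as above, had 4. The heights near Trim28, Dnmt1 and Dnmt3a lay below the median of 39 at kept sites, apart from the 39 of Dnmt1, which equals it.

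Members were unevenly spread over chromosomes. Chromosome 11 held 1320 members (11.2%), 10.8 per Mb, while it makes up 4.59% of the genome and has 7.39% of coding genes. The share was 11.3% of members near coding starts and 11.1% of the others. The chromosome also held 11.5% of kept sites and 13.2% of the WT Sox2 list, but 8.50% of KO Nanog and 7.81% of WT Oct4 summits. Chromosome X held 140 members (1.18%), against 1.79% of all KO Sox2 and 1.69% of WT Sox2 summits, 6.28% of the genome and 4.16% of coding genes. Chromosome copy number was not tested. Another member lay within 10 kb of 25.5% of members (24.7 to 26.3), and another kept site within 10 kb of 14.1% of kept sites, which are fewer.

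Through differentiation, H3K4me3 stayed frequent at the positions of members. The binding lists are of mESC, so these values say where the marks of EBs fall at sites bound in KO mESC. In WT EBs 51.7%, 57.7% and 60.7% of members lay in H3K4me3 domains at weeks 1, 2 and 3, and in KO EBs 40.2%, 59.3% and 62.7%. Kept sites had 26.8%, 42.6% and 51.0% in WT and 19.6%, 52.0% and 55.9% in KO. At week 1 the gap between members and kept sites was widest, 24.9 points in WT (23.1 to 26.6) and 20.7 points in KO (19.0 to 22.2). That gap was 6.04 points in WT (4.28 to 7.74) and 2.96 in KO (1.45 to 4.40) among sites farther than 2 kb from a coding start. At week 2 it was -0.713 points there in WT (-2.81 to 1.36) and -7.63 in KO (-9.78 to -5.48). At week 3 it was -6.88 points in WT (-9.02 to -4.74) and -8.82 in KO (-11.0 to -6.66). The week 1 lists covered the least of the genome of all H3K4me3 lists, 4.03% in WT and 2.76% in KO, beside 7.75% and 5.82% at week 2.

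**Figure D5:**
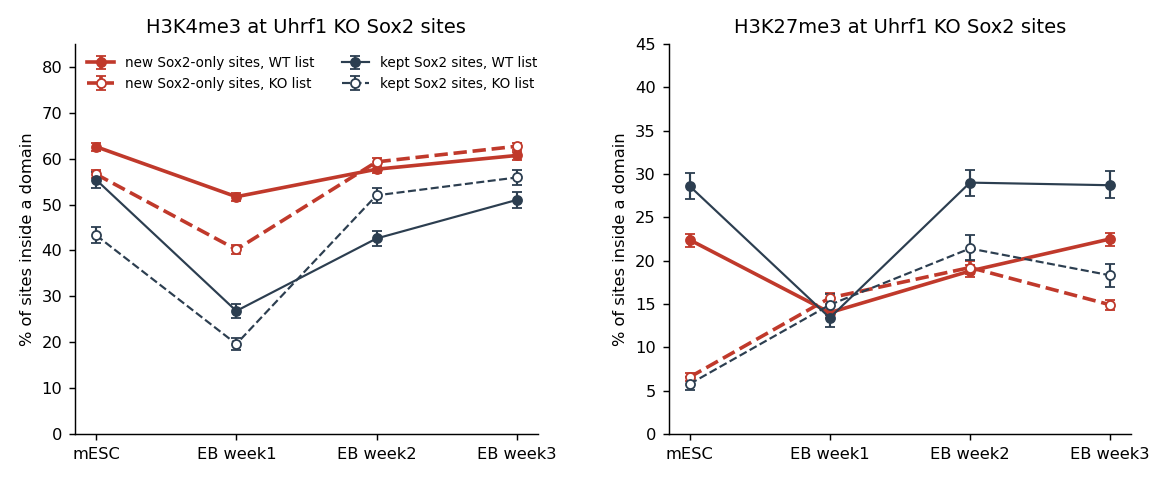
Share of new Sox2-only sites (thick red) and kept sites (thin blue) inside H3K4me3 (left) and H3K27me3 (right) domains of WT (solid, filled) and KO (dashed, open) mESC and EBs, with Wilson 95% intervals and 1 library per point. Members keep the higher H3K4me3 share at every stage of either genotype, and in KO mESC the H3K27me3 share of both classes is lowest, 6.55% and 5.76%.

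H3K27me3 domains of WT EBs held 1661 members at week 1, 2229 at week 2 (18.8%) and 2668 at week 3 (22.5%), and those of KO EBs held 1858 (15.7%), 2276 (19.2%) and 1768 (14.9%). Against kept sites the difference was 0.629 points at week 1 in WT (-0.713 to 1.91), and -10.2 at week 2 (-11.9 to -8.52) and -6.25 at week 3 (-7.97 to -4.56). In KO EBs it was 0.797 points (-0.603 to 2.14), -2.27 (-3.86 to -0.739) and -3.36 (-4.85 to -1.93). Of the members in WT H3K27me3 domains, 79.3% were also in the KO list at week 1, 57.3% at week 2 and 54.9% at week 3, against 21.7% in mESC. Over all KO Sox2 summits these shares were 76.9%, 48.9%, 52.9% and 18.7%. The WT H3K27me3 list covered 3.81% of the genome at week 1, 43.9% at week 2 and 29.8% at week 3, and the KO list 6.78%, 17.6% and 15.8%.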

How the data were processed

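Reads were mapped by the authors to mm9 with Bowtie2 2.1.0, keeping 1 alignment per read, and each sample has its own list. For Sox2, Oct4 and Nanog the authors used MACS, and the signal deposited beside each summit is its height in whole reads. For histone marks they used RSEG with input, and its deposited signal, a mean count per bin, was not used, only the domain positions. Uhrf1 windows of 10 kb were deposited as positions with no score. Read totals were not used here, so depth per library is not given, and the 8 input samples were not analysed.

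Samples were grouped as GEO's labels give them. Summits within 100 bp were counted as the same site, and a site was in a domain when the summit lay inside it. The study's methods give 100 bp as a distance between peaks. Measured between summits, as here, the limit can leave overlapping peaks apart. All 523 combinations of a list with a chromosome stayed within the NCBIM37 chromosome lengths. Genes came from the GENCODE annotation of that build. Shares have Wilson and differences Newcombe 95% intervals. Differences within 5 groups of height were weighted by the number of members and have a normal interval. No p-value is given, with 1 library per group. The code was checked on simulated data, where 13 of 13 checks passed. Python 3.11.15, numpy 2.4.6, pandas 2.3.3 and matplotlib 3.10.9 were used.

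The sites, lists and measures were chosen with earlier results of these data known. Named items were the 10 tallest members at most 1 per 10 kb, with bases for the 6 tallest that could be printed, the 10 genes nearest to the most members within 50 kb, up to 3 genes per list with the most members within 50 kb, and sites at either side of the 100 bp limit. Alternatives were other exclusion distances, taller sites only, merged summits, other motif or promoter windows, wider domains and height groups. One gene that this rule names is not reported here.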

Additional observations from a re-analysis of the deposited data

Results flagged for a closer look

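For H3K4me3, the KO minus WT difference in the share of new Sox2-only sites inside a domain was negative early on, at -5.97 points in mESC and -11.4 points in EBs of week 1. It was higher in KO at week 2, with 1.60 points, and at week 3, with 2.00 points. The H3K27me3 difference was -15.8 points in mESC and -7.58 points at week 3, whereas week 1 had 1.66 points and week 2 had 0.396 points. Each value rests on 1 WT and 1 KO library, and whether stages differ was not tested. The share of the genome that each list covers moved in the same direction as the members for both marks at all stages except week 2. There, H3K4me3 covered 7.75% in WT and 5.82% in KO, and H3K27me3 covered 43.9% and 17.6%. The part of list length in these differences was not tested.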

How the results depend on the processing

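Of 55 alternatives over 13 results, 22 stayed close to the reported value, 30 moved and 3 changed sign, and the cause was not tested. Restricting to sites over 2 kb from a coding start, chosen after seeing the data, changed the difference between members and kept sites to -0.821 points for KO H3K4me3 and 0.583 for Uhrf1 windows, both of the other sign with intervals that include 0, and to -14.7 for WT H3K9me3 and -8.14 for the Sox motif. Within 5 groups of height the difference was 0.249 points for the Sox motif, of the other sign with an interval that includes 0, 8.80 for KO H3K4me3, -8.10 for WT H3K27me3, -2.69 for Uhrf1 windows and 13.4 for promoters. With sites above the median height only, shares were 55.2% for KO H3K4me3, 15.7% for WT H3K27me3, 1.61% for Uhrf1, 33.0% for promoters and 37.6% for the motif, and differences -12.6 for WT H3K27me3, -1.68 for Uhrf1, 21.2 for promoters and -1.86 for the motif. With exclusion within 500 bp, shares were 58.2% for KO H3K4me3, 19.5% for WT H3K9me3, 2.32% for Uhrf1 and 42.8% for promoters, and differences -1.71 for Uhrf1, 24.9 for promoters and -11.6 for the motif. Domains widened by 1 kb gave 58.3% for KO H3K4me3, 21.9% for WT H3K9me3 and 23.5% for WT H3K27me3. Promoters were 37.0% with a limit of 1 kb and 47.2% with 5 kb, and the motif share 14.2% within 25 bp and 33.9% within 100 bp. Cutting the KO Sox2 list to the length of the WT list, by height, left 770 members, while exclusion distances up to 1000 bp left 10201. No paired analysis was possible because each group holds 1 library. Without replicates or read totals, neither list length nor depth can be separated from genotype.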
